A study of Mus musculus with 12 samples.

Results

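The transcripts described here had lower values after gonadotropin stimulation in mural granulosa cells of the mouse ovarian follicle, while their mean values in cumulus cells stayed nearly level. They were chosen from group means on a log2 scale, on which a difference of -1 is a halving. A member had a highest group mean of at least 8, a stimulated minus unprimed difference of -1 or lower in mural cells, and a difference between -0.4 and 0.4 in cumulus cells. Of 41115 rows named by mouse transcript, 27365 held distinct values, and 54 of these were members. They stood for 81 transcripts, because 17 of the 54 shared their values on all arrays with up to 3 further transcripts that cannot be told apart here. The identifiers come without gene names in the files, and 0 members were matched to a gene, so the members are described by their values, with no statement on function, and only those with the most extreme values are given by identifier.

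Expression was measured on 12 Affymetrix arrays, 3 for each of 4 groups: stimulated mural cells, unprimed mural cells, stimulated cumulus cells and unprimed cumulus cells. The stimulus was an injection of 5 IU eCG, equine chorionic gonadotropin (PMSG in the labels), given 44 hours before the cells were taken, and unprimed mice were not injected. The animals were B6SJLF1 mice 22 days old, with no further allele or treatment named. Each replicate was a pool of 5 mice. A cumulus sample held the cells stripped from 200 cumulus-oocyte complexes, and a mural sample was a roughly equal mass of granulosa clumps picked by their healthy colour, and no sort by a marker is named.

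Granulosa cells of an antral follicle form 2 populations. Mural cells line the follicle wall and are the main site of estrogen synthesis, and under follicle-stimulating hormone they acquire receptors for luteinizing hormone. Cumulus cells surround the oocyte, are coupled to it through gap junctions, and are held in a distinct state by factors that the oocyte secretes. eCG binds the receptor for follicle-stimulating hormone, which signals through cyclic AMP, and it drives follicles to the large antral stage. Whether the samples held the labelled cells could not be checked against marker genes, since no row has a gene name here.

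The arrays had medians between 7.30 and 7.38, and their number limits the precision. The 24 probe sets for bacterial RNAs (dap, lys, phe and thr), commonly added before amplification, averaged 7.63 ± 0.10 in stimulated mural, 7.46 ± 0.33 in unprimed mural, 8.61 ± 0.18 in stimulated cumulus and 7.69 ± 0.11 in unprimed cumulus arrays (SD, n = 3 each). They were thus 0.92 higher on the log2 scale in stimulated than in unprimed cumulus arrays, against 0.17 in mural arrays. The 18 hybridization controls averaged 11.24 ± 0.12 in stimulated and 11.31 ± 0.12 in unprimed mural arrays, and 11.45 ± 0.16 in stimulated and 11.09 ± 0.01 in unprimed cumulus arrays. For Gapdh, the excess of the 3′ over the 5′ control probe set, a sign of RNA integrity and amplification, was 1.71 ± 0.30 in stimulated and 2.07 ± 0.25 in unprimed mural arrays, and 1.52 ± 0.13 in stimulated and 1.85 ± 0.10 in unprimed cumulus arrays. For beta-actin it was 0.80 ± 0.04, 0.83 ± 0.07, 1.06 ± 0.16 and 0.89 ± 0.13 in the same 4 groups. The part of these signs in the choice of members was not tested. The mean of the bacterial RNA controls was also used as a covariate, added after the data were seen. With it the differences of 53 rows met the same limits, of which 25 were among the 54. This covariate was highest in stimulated cumulus arrays, so its effect and that of the groups cannot be fully told apart. The samples were bulk RNA, in which a smaller share of cells that carry a transcript and less of it per cell cannot be told apart.

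Among rows that reached the level of 8, 227 were lower by at least 1 in stimulated than in unprimed mural cells. In cumulus cells 165 of these had a difference of -0.4 or lower, 8 had one of 0.4 or higher, and the 54 members lay in between. The limits cut through a continuous range of values. The members nearest the mural limit had differences of -1.002 and -1.004, and the nearest rows outside it had -0.999 and -0.998. At the lower cumulus limit the nearest values were -0.383 and -0.358 inside and -0.4002 and -0.4048 outside. At the upper one they were 0.340 and 0.316 inside and 0.707 and 0.745 outside, so the upper edge stood in a gap. The nearest highest group means were 8.03 and 8.16 inside and 7.98 and 7.76 outside.

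All 54 members reached the mural limit by the rule, so their mural and cumulus differences are given as a description. The mural difference ran from -2.22 to -1.002 with a median of -1.21, which is a level 2.31-fold lower in stimulated cells. Over the 16809 distinct rows that passed the filter on low values, members included, the median was -0.02. In cumulus cells the members' differences ran from -0.38 to 0.34 with a median of -0.08, with 31 below and 23 above 0, and 27 lay within 0.2 of 0. A small mean difference is not a measured absence of change: over 2 standard errors on either side, 8 members stayed inside the window of 0.4 and 50 stayed within 1. The standard errors given here and below rest on a spread pooled over all groups of arrays. Members varied more in mural than in cumulus cells, so these errors can be too wide for cumulus and too narrow for mural differences. Most members were near the mural limit. A group of 8 stood apart with differences of -1.77 or lower, and the next member had -1.47. A pair among these 8 had deviations from their group means that correlated at 0.994 over the arrays, so the 8 may not be separate signals.

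**Figure D1:**
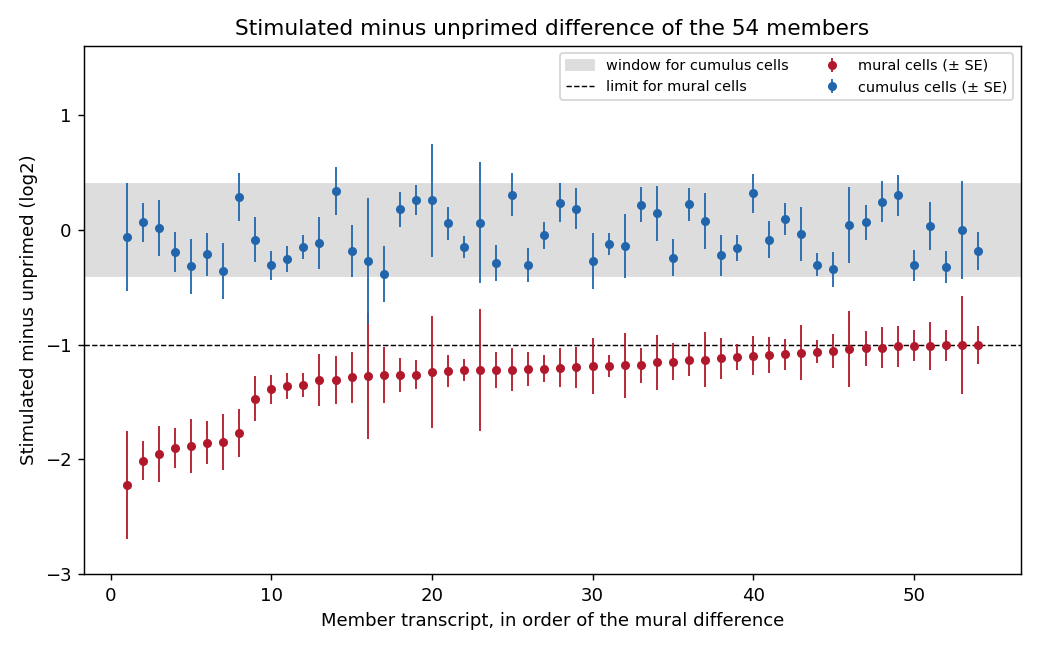
Stimulated minus unprimed difference (log2) of each of the 54 members in mural cells (red) and cumulus cells (blue), ordered by the mural value, with bars for the standard error of the linear model. The 8 leftmost members reach -1.77 or lower in mural cells, most others lie near the dashed limit of -1, and all cumulus values lie in the grey window from -0.4 to 0.4 that was used to choose them.

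The transcript with the lowest mural difference was ENSMUST00000064795. It had values of 8.93, 10.61 and 10.61 in stimulated mural cells, against 12.48, 11.16 and 13.17 in unprimed mural cells. In cumulus cells it had 13.98, 13.92 and 13.69 after stimulation, against 13.88, 14.14 and 13.77 in unprimed mice. The 3 stimulated mural arrays lay below the 3 unprimed ones, while the cumulus arrays overlapped. Its mural difference was -2.22 ± 0.47 (SE), or 4.67-fold lower, and the size rested on single arrays, with -1.66 without stimulated mural replicate 1. Its spread was much wider in mural (SD 0.97 stimulated, 1.02 unprimed) than in cumulus cells (SD 0.16 stimulated, 0.19 unprimed).

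ENSMUST00000050732 followed, and its replicates were closer together. Its values were 9.88, 10.09 and 10.40 in stimulated mural cells, against 12.38, 12.03 and 11.99 in unprimed mural cells. Cumulus cells had 12.69, 12.61 and 13.04 after stimulation, against 12.61, 12.97 and 12.55 in unprimed mice. The mural groups lay far apart and the cumulus groups overlapped. The mural difference was -2.01 ± 0.17 (SE), or 4.03-fold lower, and ran from -2.15 to -1.88 when 1 mural array was left out. The cumulus difference was 0.07 ± 0.17.

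**Figure D2:**
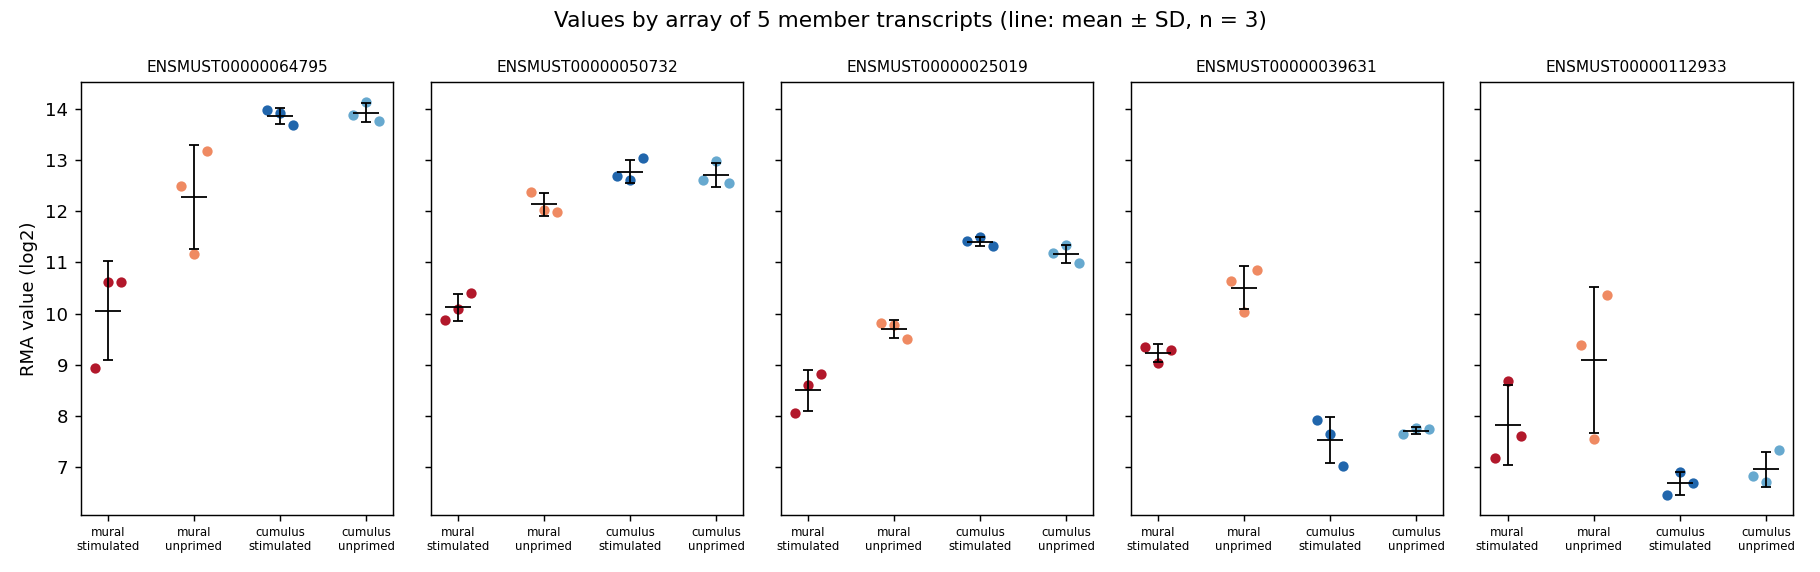
RMA values (log2) by array of 5 member transcripts in stimulated and unprimed mural cells (reds) and stimulated and unprimed cumulus cells (blues), with points for the 3 arrays of a group and a line with bars for the mean ± SD. ENSMUST00000064795, ENSMUST00000050732 and ENSMUST00000025019 lie lowest in stimulated mural cells, whereas ENSMUST00000039631 and ENSMUST00000112933 have their lowest values in cumulus cells.

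The members as a whole kept their direction when single arrays were left out, although many then crossed the limit. In 50 of the 54 all 3 stimulated mural arrays lay below all 3 unprimed ones, an arrangement found in 17.0% of the rows tested, and the rule used these arrays. The cumulus groups did not overlap in 15 members (12 lower and 3 higher after stimulation), against 40.9% of rows tested, and the rule used these arrays too. With any 1 mural array left out the mural difference stayed below 0 in all 54, and 29 stayed at -1 or lower whichever array was left out. The arrays kept had also chosen the members, so the rule favoured values below 0. Without stimulated mural replicate 1, 36 members met the mural limit, and without unprimed mural replicate 1, 41 did.

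A second reading chose members anew from the arrays of a pair of replicate numbers and read their differences in the arrays of the number left out, which had no part in the choice. With number 1 left out 36 rows were chosen, with number 2 left out 63, and with number 3 left out 88. In the arrays left out the median mural difference was -1.25 for number 1, -0.67 for number 2 and -0.80 for number 3, against medians over all rows tested of -0.01, -0.07 and 0.03. The stimulated mural array was the lower one in 36 of 36, 50 of 63 and 87 of 88 of the chosen rows, against 51.3%, 59.6% and 47.0% of all rows tested. A difference of -1 or lower was met again by 29, 24 and 31 of them, against 2.66%, 1.68% and 2.20% of all rows tested. The cumulus difference stayed within 0.4 of 0 in 21 of 36, 47 of 63 and 59 of 88 of the chosen rows. Of all rows tested 72.2%, 71.4% and 76.9% did so. The share of the chosen rows was thus smaller than that of all rows for numbers 1 and 3, and larger for number 2. With 1 array per group on the left-out side these values have no error of their own. In numbers 2 and 3 the mural difference was thus smaller than in the arrays that chose the rows, whose medians were -1.25 and -1.21.

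Levels in the 4 groups differed widely between members. The lowest and highest group means were 6.56 and 11.97 for stimulated mural, 7.82 and 13.16 for unprimed mural, 6.47 and 13.86 for stimulated cumulus, and 6.56 and 13.93 for unprimed cumulus cells. Few members came near the filter level, which lay at 6.66 to 6.73 across arrays. Of the 54 members, 1 had a mean below it in stimulated mural cells, 0 in unprimed mural cells, and 2 in each of the cumulus groups. All 54 passed the filter, and 51 lay above this level in both cumulus groups.

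The level relative to cumulus cells divided the members. In stimulated mice all 3 mural arrays lay below all 3 cumulus arrays in 41 members, above them in 3, and overlapped in 10, where 29.9% of all rows tested were fully below and 21.4% fully above. In unprimed mice the mural arrays lay below in 25 members, above in 14, and overlapped in 15, against 24.4% and 17.8% of all rows tested. These arrays also chose the members, so the counts are a description. Of the 25 members below cumulus level in unprimed mice, all 25 were below it after stimulation as well. Of the 15 that overlapped in unprimed mice, 14 were below after stimulation and 1 overlapped again. Of the 14 above cumulus level in unprimed mice, 3 stayed above, 9 overlapped with cumulus cells after stimulation, and 2 were below. The commonest course was thus a mural level that started at or under the cumulus level and ended further under it.

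The size of the difference between the cell types had a median of 1.47 after stimulation and 0.58 in unprimed mice, and was larger after stimulation in 40 members and smaller in 14. Mural cells were at least 1 log2 unit below cumulus cells in 36 members after stimulation and in 10 in unprimed mice. They were at least 1 above in 2 members after stimulation and in 8 in unprimed mice.

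**Figure D3:**
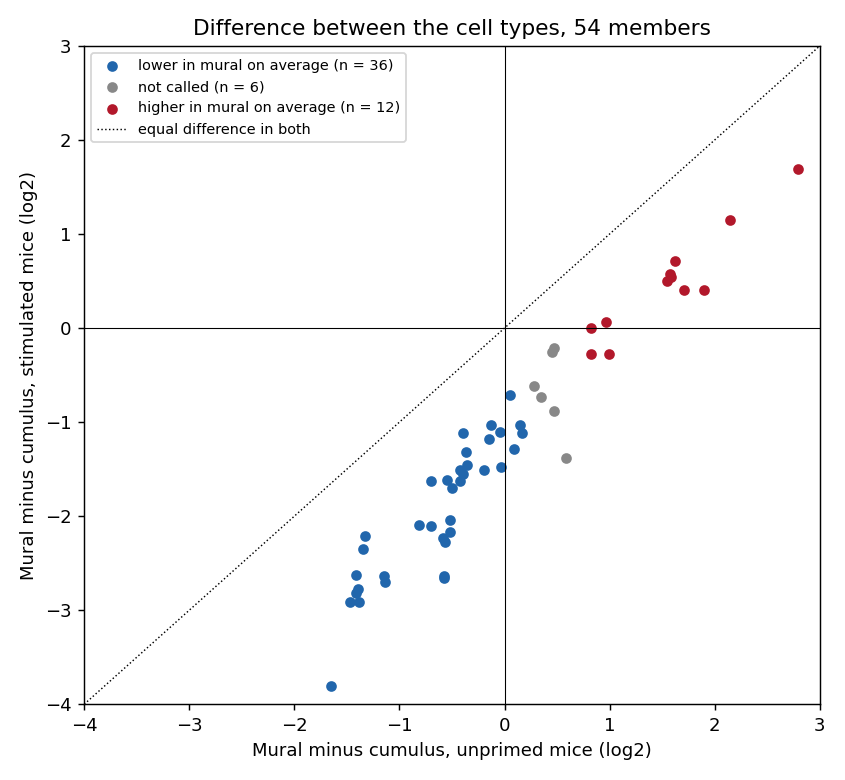
Mural minus cumulus difference (log2) of the 54 members in stimulated mice (vertical) and unprimed mice (horizontal), coloured by the test of the average over both. All points lie under the dotted line of equal differences, as the rule requires, and most lie at the lower left, where mural cells are below cumulus cells in both.

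The difference between the cell types averaged over stimulated and unprimed mice was tested, because its noise is independent of the differences that chose the members where all groups spread alike, as the model assumes. Single members departed from this, such as 1 with an SD of 0.52 in stimulated and 1.12 in unprimed mural cells, and for these the test is not free of the choice. Its size is not free of them: a member at equal levels in unprimed mice and lower by 1 in stimulated mural cells has an average of -0.5 by arithmetic. In limma's linear model, with Benjamini-Hochberg adjustment over 16809 rows and a threshold of 0.05, 36 members were lower and 12 were higher in mural than in cumulus cells, and 6 were not called. Over all rows tested 28.0% were called lower and 21.1% higher. The lower level that the rule requires in stimulated mural cells counts toward a call of lower. The limit on the highest group mean can favour calls in both directions, because a high level in either cell type meets it. ENSMUST00000112933, called higher, met it only in unprimed mural cells (9.09), with 6.68 in stimulated and 6.95 in unprimed cumulus cells. A member called lower met it only in cumulus cells (8.77 stimulated, 9.15 unprimed), with 6.56 in stimulated and 7.82 in unprimed mural cells. The calls are thus not free of the rule, and their numbers beside these shares are a description. The median average over the members was -0.80, against -0.04 over all rows tested.

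The 36 members called lower in mural cells had median levels of 8.35 (stimulated) and 9.64 (unprimed) in mural cells, and of 10.38 (stimulated) and 10.26 (unprimed) in cumulus cells. Their averages ran from -2.73 to -0.33, with limma adjusted p-values from 5.9e-08 to 0.0063. In 25 of them the mural arrays already lay below the cumulus arrays in unprimed mice, and in the other 11 they overlapped. ENSMUST00000064795 had the lowest average, -2.73 ± 0.33 (SE, limma adjusted p = 4.4e-05), with a mural minus cumulus difference of -3.81 in stimulated and -1.65 in unprimed mice.

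ENSMUST00000025019 was next lowest. Its values were 8.06, 8.60 and 8.83 in stimulated mural cells, against 9.81, 9.77 and 9.51 in unprimed mural cells. Cumulus cells had 11.41, 11.49 and 11.31 after stimulation, against 11.18, 11.34 and 10.99 in unprimed mice. Every mural array lay below every cumulus array, in both conditions. The average difference was -2.19 ± 0.12 (SE, limma adjusted p = 1.1e-07). Its mural difference of -1.20 with stimulation was -0.99 without stimulated mural replicate 1, just outside the limit.

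The 12 members called higher in mural cells had median levels of 8.11 in stimulated and 9.24 in unprimed mural cells, and of 7.84 in stimulated and 7.77 in unprimed cumulus cells. In all 12 the mural arrays lay above the cumulus arrays in unprimed mice, and in 9 the cell types overlapped after stimulation. An average above 0 and the limits of the rule together require a mural mean above the cumulus mean in unprimed mice. That direction is thus a description. Their averages ran from 0.27 to 2.25, with limma adjusted p-values from 6.8e-07 to 0.048. With the bacterial RNA controls as a covariate 2 of the 12 were called higher.

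ENSMUST00000039631 led these members. It had values of 9.35, 9.02 and 9.29 in stimulated mural cells, against 10.63, 10.04 and 10.86 in unprimed mural cells. Cumulus cells had 7.91, 7.64 and 7.03 after stimulation, against 7.64, 7.76 and 7.74 in unprimed mice. Mural values stayed above cumulus values on every array, by 1.70 in the mean in stimulated and 2.80 in unprimed mice. The average difference was 2.25 ± 0.16 (SE, limma adjusted p = 6.8e-07).

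ENSMUST00000112933, the next, was far less even. Its values were 7.17, 8.68 and 7.61 in stimulated mural cells, against 9.38, 7.55 and 10.35 in unprimed mural cells. Cumulus cells had 6.45, 6.89 and 6.69 after stimulation, against 6.82, 6.70 and 7.34 in unprimed mice. The mural groups overlapped, because unprimed replicate 2 was low and stimulated replicate 2 high, and the stimulated cumulus mean of 6.68 lay at the filter level. The average difference was 1.64 ± 0.39 (SE, limma adjusted p = 0.0039), and -0.08 with the bacterial RNA controls as a covariate. Its mural difference of -1.27 was -0.64 without unprimed mural replicate 3, and -2.04 without unprimed mural replicate 2.

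The 6 members not called had adjusted p-values from 0.069 to 0.51 by limma. Their averages ran from -0.40 to 0.13. In stimulated mice their mural minus cumulus differences ran from -1.38 to -0.21, and in 5 of the 6 the mural arrays lay fully below the cumulus arrays. In unprimed mice the differences ran from 0.28 to 0.58, with the mural arrays fully above in 2 and overlapping in 4.

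The members varied more between replicate pools in mural than in cumulus cells. The median SD of a member was 0.27 in stimulated mural and 0.24 in unprimed mural cells, against 0.14 in stimulated cumulus and 0.17 in unprimed cumulus cells. All rows with a highest group mean of at least 8 had median SDs of 0.13, 0.16, 0.15 and 0.10 in the same 4 groups. The rule asked for a large mural and a small cumulus difference in these arrays, which can favour rows with a wide mural and a narrow cumulus spread. The SDs of the members are thus a description. The 12 members higher in mural cells had a median SD of 0.43 in both stimulated and unprimed mural cells, and the 36 lower ones had 0.25 in stimulated and 0.20 in unprimed mural cells.

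Part of this spread was shared. Stimulated mural replicate 1 lay below its group mean in 44 of the 54 members, with a median deviation of -0.23, while 55.6% of all rows tested lay above the mean on that array. Stimulated mural replicate 3 lay above its group mean in 43 members, and unprimed mural replicate 1 in 39, where 57.2% and 54% of all rows tested did. On the cumulus arrays the number above the mean ran from 19 to 32. The rule used these arrays, and a low value on a stimulated mural array or a high one on an unprimed mural array helps a row meet the mural limit. The counts beside the shares of all rows are thus a description. In the 12 members higher in mural cells, unprimed mural replicate 2 was the lowest of its group in 10 and stimulated mural replicate 2 the highest of its group in 9, and in the 36 lower members this was so in 11 and 7.

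Without stimulated mural replicate 1 the median mural difference was -0.91 in the 12 higher members, of which 3 met the limit, and -1.19 in the 36 lower ones, of which 30 did. Without unprimed mural replicate 1 these medians were -0.96 and -1.21. Without unprimed mural replicate 2 they were -1.41 and -1.23.

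**Figure D4:**
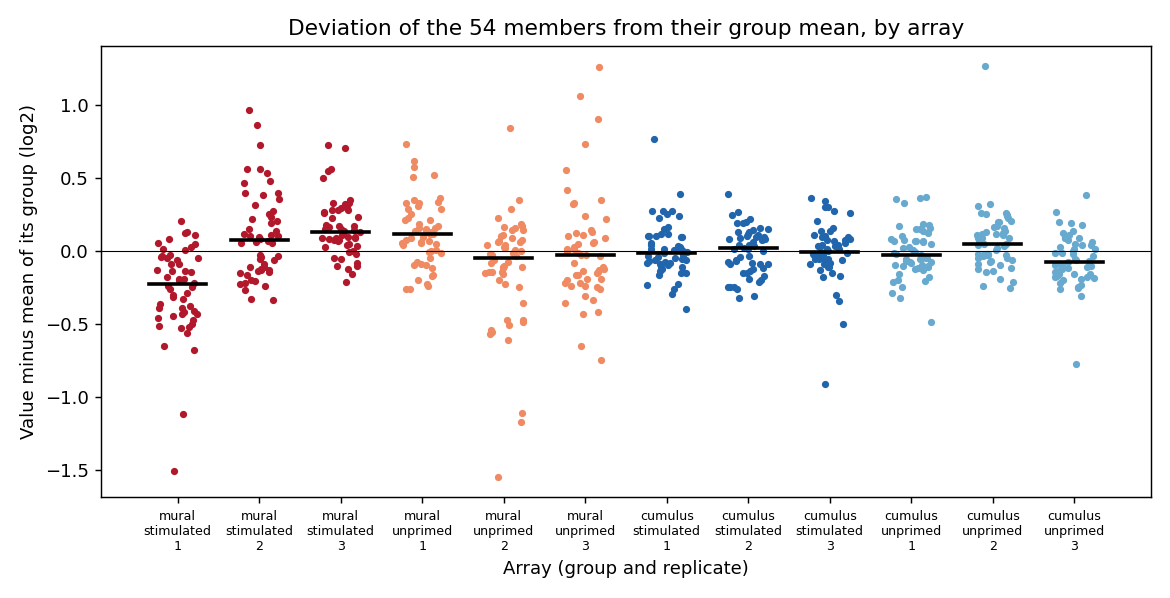
Deviation of each of the 54 members from the mean of its group (log2) on each of the 12 arrays, with a black line for the median over members. Stimulated mural replicate 1 lies below its group, with a median of -0.23 and 44 of 54 members under 0, and mural arrays spread more widely than cumulus arrays.

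Some members varied closely together across the arrays. Of the 1431 pairs of members 8 had deviations from their group means that correlated above 0.95 over the 12 arrays, and 12 members took part in these pairs. The median correlation over all pairs was 0.18. The arrays and their normalization are shared by all members, so the correlations are given as a description. Correlations were computed for pairs of members only. Whether close pairs are more common among members than among all rows tested is thus not known. The files do not say whether any of these transcripts belong to one gene.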

How the data were processed

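The deposited values were on a log2 scale, 1 per probe set, and had been made by the authors with RMA (affy), per the submitters' processing notes. RMA corrects background, normalizes quantiles between arrays and summarises probes, so a shift shared by most transcripts is removed. Per the labels' protocols 20 ng of RNA was amplified in consecutive rounds, which favours 3′ ends. The array model, probe set definition, build and versions were not given in the sources used here. Members, lists and tests were chosen with earlier results of these data known.

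From the deposited log2 values, rows with identical values were counted once, and a row was tested where 3 or more arrays placed it over their own 40th percentile (16809, including all 54 members). One mean per group was fitted in R 4.3.3 with limma 3.58.1 (lmFit, then eBayes), and the mural minus cumulus average was tested with Benjamini-Hochberg adjustment at 0.05. On simulated data with 200 of 16809 rows changed, this test recovered 98% at a log2 difference of 1 and 75% at 0.5, with 10 false calls. The p-values rest on the spread between pools within groups, pooled over all 12 arrays and moderated by eBayes over the rows tested. All 12 arrays were used as separate samples. No pair shared over 0.0631% of values, so no array was a copy of another, but this does not show that the samples came from separate mice.

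Of the 64 control probe sets, 24 served as a covariate. The planned gene lists, marker lists and most of the rule for named genes needed gene names. The reference table held 0 Ensembl identifiers, so those were not used and the rule's fallback, the 2 transcripts with the lowest mural difference, was applied. The highest and lowest pair of averages was added after the values were seen. Alternatives were other normalizations, filters, blocks, weights, limits and arrays left out. Python 3.11.15 and matplotlib 3.10.9 made the figures.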

Additional observations from a re-analysis of the deposited data

How the results depend on the processing

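The counts of members lower (36) and higher (12) in mural cells on average, and the averages of the 5 named transcripts, kept their direction and side of the threshold under renewed quantile normalization, median centring, cyclic loess, other filters, array weights (whose estimation stopped before convergence), a trended prior and each array left out. The counts then ran from 35 to 37 lower and from 10 to 14 higher, and from 36 to 37 and 10 to 11 with 1 array left out. The exception was the covariate of bacterial RNA controls, which itself differed between the groups and cannot be fully told apart from them. With it 2 were called higher and 29 lower, and ENSMUST00000112933 had a value of -0.0759. The cause was not tested. With the replicate number as a block 36 were lower and 11 higher, and with the number within stimulation as a block 36 and 12. Deviations of same-numbered mural and cumulus arrays correlated by -0.13 to 0.20 in stimulated and 0.08 to 0.41 in unprimed mice. The labels do not say whether such samples came from the same mice, and these values do not settle it. No call of a named transcript changed with either block. The rule found 48 to 55 rows under the other normalizations and 41 to 78 with 1 array left out. A stricter mural limit of -1.5 left 8 rows and a cumulus window of 0.2 left 27, by construction. The median mural difference ran from -1.27 to -1.11 with 1 mural array left out. Read in arrays that did not choose the rows it was -1.25 for number 1, -0.668 for number 2 and -0.802 for number 3, and the cause of the smaller values was not tested. Dim signal limits the members at the filter level, and its effect on the other members was not tested.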
